A study of Mus musculus with 14 samples.

Results

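Hsd3b5, Slco1a1, Elovl3, Selenbp2, Sult5a1 and Cyp4a12a are 6 mouse genes of hepatocyte metabolism that are grouped as outputs of growth hormone. They were chosen by their measured levels, for joint rises in libraries labelled LD or in hepatocyte nuclei labelled ko, so their values in those samples are given as a description, without a test. The 6 genes stand among 29737 gene names in all files of the series, and all 6 passed the filter on low values in both bulk tables.

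Liver RNA was measured in 12 bulk libraries, 3 in each of 4 groups, and in 2 libraries of single nuclei. Libraries labelled LD are given as wild type mice on chow that received lipid droplets by tail vein on 6 consecutive days. Libraries labelled PBS are given as wild type mice on chow that received phosphate-buffered saline in the same way. Libraries labelled KO are given as Ms4a7 KO mice, which lack a macrophage membrane protein, and libraries labelled wild type as mice with intact Ms4a7, all fed for 22 weeks with a NASH diet, which brings on nonalcoholic steatohepatitis. The ko and wt nuclei came from livers of the same diet and genotypes, 3 livers pooled for each. Neither strain nor age is given, and the labels do not say how the Ms4a7 allele was made or whether replicates came from separate animals. Where they did not, the p-values below measure only the spread between these samples, which may be technical.

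Growth hormone reaches the liver in pulses in male rodents and more continuously in females. It binds its receptor, Ghr, on hepatocytes, Jak2 then phosphorylates STAT5, and pulses of active STAT5 raise male-biased genes such as Hsd3b5, Slco1a1 and Cyp4a12a. Bcl6 represses female-biased and Cux2 male-biased liver genes. Cish and the Socs genes are induced by the same pathway and dampen it, and Igf1 and Igfals are its best known secreted products. None of the groups was given or deprived of growth hormone.

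RefSeq sequences upstream of the start site were at hand for 4 of the 6 genes (build GRCm38.p6). Hsd3b5 is shown because it differed most between labelled LD and labelled PBS libraries. The window is chr3:98645535-98645784 on the minus strand, 250 bases that end just before the RefSeq start, which lies 15.3 kb upstream of the start in the GENCODE annotation. Capitals mark the 1 match, on the opposite strand, to CAAAGNNCA, a core of the element that the hepatocyte factor HNF4A binds.
Hsd3b5: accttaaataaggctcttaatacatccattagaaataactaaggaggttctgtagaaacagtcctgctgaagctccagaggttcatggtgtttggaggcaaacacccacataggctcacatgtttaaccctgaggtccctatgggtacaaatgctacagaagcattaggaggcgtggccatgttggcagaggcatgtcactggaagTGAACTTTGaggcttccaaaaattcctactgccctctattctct

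Selenbp2 and Selenbp1 are shown together because these close copies on chromosome 3 had unlike values below. The windows are chr3:94693323-94693555 for Selenbp2 and chr3:94932833-94933055 for Selenbp1, both on the plus strand. Capitals mark bases that differ or have no partner in the alignment, 25 in Selenbp2 and 15 in Selenbp1, and 88.5% of its 235 columns were identical.
Selenbp2: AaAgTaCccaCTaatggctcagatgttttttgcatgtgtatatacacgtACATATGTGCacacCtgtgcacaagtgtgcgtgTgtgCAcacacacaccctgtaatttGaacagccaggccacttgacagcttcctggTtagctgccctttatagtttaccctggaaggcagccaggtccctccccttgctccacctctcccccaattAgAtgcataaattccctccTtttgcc
Selenbp1: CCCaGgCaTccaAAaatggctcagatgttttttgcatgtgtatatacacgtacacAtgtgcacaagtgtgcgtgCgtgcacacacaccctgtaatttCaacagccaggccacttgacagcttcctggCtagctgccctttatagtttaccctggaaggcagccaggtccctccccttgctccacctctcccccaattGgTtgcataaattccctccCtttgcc

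Both strands of all windows were searched for TTCNNNGAA, the spacing that STAT5 binds, for CAAAGNNCA and for TGTTTAC, a core of FOXA sites. TTCNNNGAA is in 7.02% of 32851 RefSeq windows of 250 bases, CAAAGNNCA in 5.49% and TGTTTAC in 3.17%. Of the 4 windows of these genes, 0 held TTCNNNGAA, 1 held CAAAGNNCA and 0 held TGTTTAC. The search covers these letters in these windows and no other bound sites.

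Positions follow GENCODE on mm10. Hsd3b5 is at chr3:98618634-98630252, Selenbp2 at chr3:94693556-94704413, Cyp4a12a at chr4:115299046-115332815, Slco1a1 at chr6:141907282-141946962, Sult5a1 at chr8:123140192-123158315 and Elovl3 at chr19:46131897-46135694, and all 6 are annotated as protein coding. Counts of Selenbp2 and Cyp4a12a are uncertain in part, because 52.0% of the 50-base stretches of the Selenbp2 transcript also occur in Selenbp1, and 48.9% of those of Cyp4a12a occur in Cyp4a12b. The shared part was 21.2% for Hsd3b5, mostly with Hsd3b4, and at most 2.6% for Slco1a1, Sult5a1 and Elovl3.

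The bulk values are gene reads divided by a size factor for each library, called normalized counts here. Each library labelled KO or wild type held between 21945394 and 23126164 reads in genes, and each library labelled LD or PBS between 39318264 and 41346464. Each read became 1.15 to 1.29 normalized counts in libraries labelled KO or wild type. In libraries labelled LD or PBS it became 0.901 to 1.09. Which libraries entered each scaling is not given in the sources used here, so levels are compared within a table. Adjusted p-values come from limma with Benjamini-Hochberg adjustment over all genes tested in a table, with a threshold of 0.05, and log2 fold changes are given ± SE. Errors of levels are SD over 3 libraries.

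Ms4a7 itself went against the labels. It had 102, 117 and 136 normalized counts in labelled KO libraries, against 9.7, 25.8 and 23.3 in labelled wild type libraries. In labelled LD libraries it had 10.5, 7.6 and 9.32 normalized counts, against 62.2, 84.7 and 163 in labelled PBS libraries. The submitters also named the table labelled KO and wild type for lipid droplets, and the table labelled LD and PBS for Ms4a7. An extra header line in the table labelled KO and wild type calls its labelled KO columns treated and its labelled wild type columns untreated. Every comparison and direction below is therefore that of the labels, which these values contradict. Whether the bulk tables were exchanged with each other was not tested. Such an exchange would change which comparison each table holds rather than the sign of its fold changes. In nuclei the labels and Ms4a7 ran the same way, with 0.622 UMIs per 10000 in ko and 1.25 in wt nuclei of group 3, where all 7 macrophage markers were highest. Xist had at most 8.57 normalized counts in any bulk library and the Y-linked Ddx3y at least 828, the pattern of male liver.

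Between genes, levels can be set side by side only per length, as reads per kilobase of exon and per 1000000 gene reads. In labelled LD libraries Cyp4a12a was highest at 278 ± 49.1, followed by Elovl3 at 131 ± 88.5, Hsd3b5 at 79.5 ± 38.7, Selenbp2 at 56.6 ± 26.5, Slco1a1 at 25.7 ± 9.31 and Sult5a1 at 2.81 ± 0.586. From Elovl3 to Slco1a1, each gene overlapped the next over the 3 libraries. In labelled PBS libraries the order was Cyp4a12a at 144 ± 121, Elovl3 at 57.9 ± 30.8, Selenbp2 at 17.9 ± 4.32, Slco1a1 at 5.25 ± 2.05, Hsd3b5 at 1.14 ± 0.417 and Sult5a1 at 0.627 ± 0.103, and only Cyp4a12a and Elovl3 overlapped. Hsd3b5 thus stood above Selenbp2 and Slco1a1 in labelled LD libraries and below both in labelled PBS libraries.

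In labelled KO libraries the order per length was Cyp4a12a at 347 ± 33.5, Selenbp2 at 195 ± 78.9, Hsd3b5 at 139 ± 40.8, Slco1a1 at 54.5 ± 1.92, Elovl3 at 13.2 ± 0.920 and Sult5a1 at 6.21 ± 0.997. In labelled wild type libraries it was the same, with Cyp4a12a at 531 ± 32.3, Selenbp2 at 528 ± 217, Hsd3b5 at 219 ± 6.31, Slco1a1 at 64.1 ± 5.08, Elovl3 at 35.4 ± 16.1 and Sult5a1 at 8.86 ± 2.55. Selenbp2 overlapped Hsd3b5 in labelled KO libraries and Cyp4a12a in labelled wild type libraries, and other neighbours did not overlap.

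As labelled, the comparison of LD with PBS livers asks how lipid droplets given to healthy mice change the liver, although Ms4a7 and the name of the table go against those labels, and it is one of the comparisons that picked these genes. Hsd3b5, a mouse liver enzyme of the 3-beta-hydroxysteroid dehydrogenase family that reduces steroid hormones, had 5827, 7356 and 2342 normalized counts in labelled LD libraries 1, 2 and 3, against 100.3, 43.3 and 63.8 in labelled PBS libraries 1, 2 and 3. The groups were far apart, and all labelled PBS libraries were low. The mean was 5175 ± 2570.2 in labelled LD and 69.1 ± 28.9 in labelled PBS libraries, with a log2 fold change of 6.13 ± 0.41. From the level of 1 gene in bulk liver, fewer hepatocytes and less of its RNA in each hepatocyte cannot be told apart; the summed level of 15 general hepatocyte genes overlapped between these groups, at 5605382 to 6115721 in labelled LD and 4753294 to 5773451 in labelled PBS libraries. Slco1a1, a transporter that takes up organic anions on the sinusoidal side of hepatocytes, had 6671, 7121 and 3277 normalized counts in labelled LD libraries, against 1502, 1146 and 589 in labelled PBS libraries. These groups did not overlap either, with a log2 fold change of 2.42 ± 0.36.

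Among the enzymes of fatty acid metabolism the libraries overlapped. Elovl3, which elongates saturated and monounsaturated fatty acids to very long chains, had 16968, 12814 and 2789.8 normalized counts in labelled LD libraries, against 7083, 4419.5 and 1929.8 in labelled PBS libraries. Labelled LD replicate 3 lay below 2 of the labelled PBS libraries, and the log2 fold change was 1.11 ± 0.65. Cyp4a12a, which hydroxylates the end carbon of fatty acids including arachidonic acid, had 28589, 23358 and 32498 normalized counts in labelled LD libraries, against 27110.4, 11375 and 3071 in labelled PBS libraries. Labelled PBS replicate 1 lay within the labelled LD range and replicate 3 far below the rest, and the log2 fold change was 1.51 ± 0.61.

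Sult5a1, a cytosolic sulfotransferase, had 548, 618 and 394 normalized counts in labelled LD libraries, against 113, 86.5 and 121 in labelled PBS libraries, with a log2 fold change of 2.26 ± 0.20. Its groups were well apart, although it was the lowest of these genes per length. Selenbp2, a selenium-binding protein, had 7878, 5344 and 2907 normalized counts in labelled LD libraries, against 1674, 1150.2 and 1893 in labelled PBS libraries, with a log2 fold change of 1.69 ± 0.32. Labelled LD replicate 3 was the nearest to the labelled PBS libraries.

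**Figure D1:**
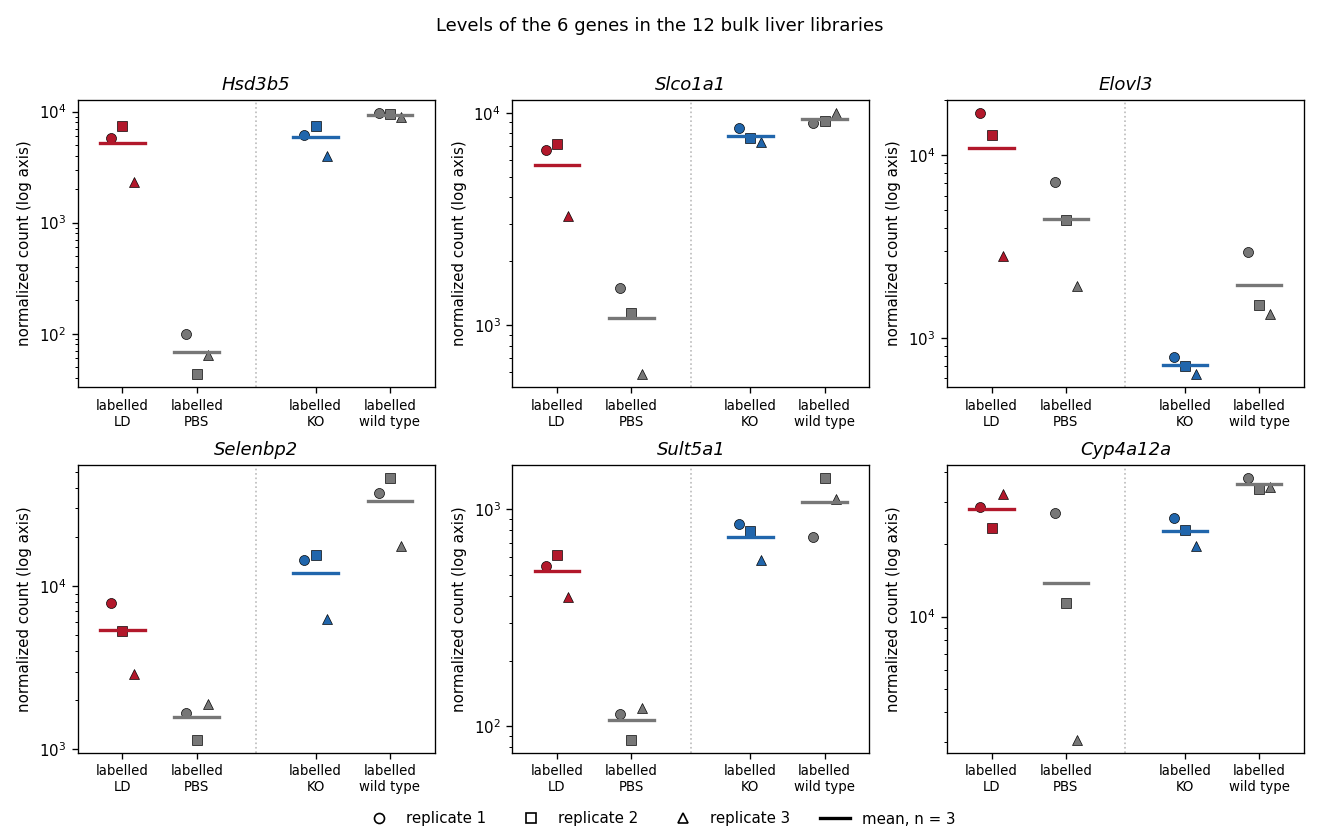
Normalized counts (log axis) of the 6 genes in every bulk library, with a horizontal bar at the mean of 3 libraries. The dotted line separates the 2 tables, between which levels are not compared. Labelled LD libraries lay above labelled PBS libraries without overlap for Hsd3b5, Slco1a1, Selenbp2 and Sult5a1, and labelled KO libraries lay below labelled wild type libraries without overlap for all but Sult5a1.

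In all, 4 of the 6 genes had labelled LD libraries that all lay above the labelled PBS libraries, beside 12.6% of the 14900 genes tested, and the median log2 fold change of the 6 was 1.97, beside 0.00 over all genes. Nothing is read from these counts, since the comparison picked the genes. Single libraries set part of the size. Labelled LD replicate 3 was the lowest labelled LD library for 5 of the 6 genes and the highest for Cyp4a12a. Without it the log2 fold change of Elovl3 was 1.91, and without labelled PBS replicate 3 it was 0.60. For Cyp4a12a it was 2.24 without labelled PBS replicate 1 and 0.67 without labelled PBS replicate 3. For the other 4 genes the log2 fold change moved less when any 1 library was left out. It ran from 5.80 to 6.63 for Hsd3b5 and from 2.03 to 2.78 for Slco1a1. For Selenbp2 it ran from 1.36 to 2.08, and for Sult5a1 from 2.12 to 2.45.

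As labelled, KO against wild type livers asks what loss of Ms4a7 does to a NASH liver, although Ms4a7 was higher in the labelled KO libraries, so these values show no loss of it. These libraries were not used to pick the genes. Elovl3 and Cyp4a12a fell, the other 4 genes did not pass the threshold, and all 6 fold changes were below 0. Elovl3 had 788, 701 and 632 normalized counts in labelled KO libraries, against 2947, 1504 and 1354 in labelled wild type libraries. The groups did not overlap, at means of 707 ± 77.8 in labelled KO and 1935 ± 879.6 in labelled wild type libraries, and the log2 fold change was -1.37 ± 0.27 (adjusted p = 0.0402). Cyp4a12a had 25764, 23046 and 19672 normalized counts in labelled KO libraries, against 37683, 34186 and 34823 in labelled wild type libraries. Labelled wild type libraries were all higher, at means of 22828 ± 3052 in labelled KO and 35564 ± 1863 in labelled wild type libraries, with a log2 fold change of -0.65 ± 0.13 (adjusted p = 0.0418).

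Neither call held in every fit that left out 1 library. Elovl3 lost its call without labelled KO replicate 1, 2 or 3 or labelled wild type replicate 2 (adjusted p 0.0659 to 0.128), at log2 fold changes of -1.58 to -1.02 over all 6 such fits. Cyp4a12a lost its call without labelled KO replicate 2 or 3 or labelled wild type replicate 1, 2 or 3 (adjusted p 0.0813 to 0.133), at log2 fold changes of -0.74 to -0.54.

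Selenbp2 had 14489.9, 15408 and 6281 normalized counts in labelled KO libraries, against 36981, 45578 and 17594 in labelled wild type libraries. Replicate 3 was the lowest of both groups, the groups did not overlap, and the log2 fold change of -1.47 ± 0.44 did not pass the threshold (adjusted p = 0.121). Hsd3b5 had 6172, 7414 and 3980.1 normalized counts in labelled KO libraries, against 9684, 9496 and 8961 in labelled wild type libraries, with a log2 fold change of -0.73 ± 0.21 (adjusted p = 0.111). The labelled wild type libraries were close together and above the labelled KO libraries.

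Slco1a1 had 8482, 7630.1 and 7301 normalized counts in labelled KO libraries, against 8925, 9143 and 9966 in labelled wild type libraries, and its log2 fold change of -0.26 ± 0.10 was the smallest of the 6 (adjusted p = 0.205). The groups came close without overlapping. Sult5a1 had 859, 792 and 586 normalized counts in labelled KO libraries, against 744, 1391 and 1118 in labelled wild type libraries, and these overlapped, at a log2 fold change of -0.51 ± 0.24 (adjusted p = 0.304).

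Counted together, 2 of the 6 genes were called lower in labelled KO libraries, beside 0.701% of the 15827 genes tested, and 0 were called higher, beside 3.02% (3.72% in either direction). In 5 of the 6 all labelled KO libraries lay below all labelled wild type libraries, beside 11.7% of genes tested (24.2% in either direction). The median log2 fold change of the 6 was -0.69, beside -0.02 over all genes. Labelled KO replicate 3 was the lowest labelled KO library for all 6. The same libraries in the authors' deposited table give adjusted p-values of 0.00063 for Elovl3, 0.00067 for Selenbp2, 0.0463 for Cyp4a12a, 0.636 for Hsd3b5, 0.762 for Slco1a1 and 0.558 for Sult5a1. Log2 fold changes in the authors' deposited table ran from -1.47 for Selenbp2 to -0.26 for Slco1a1. DESeq2 run here on the recovered reads called 4 of the 6 lower, adding Hsd3b5 (adjusted p = 0.0196) and Selenbp2 (adjusted p = 0.0442) to the 2 that limma called. Among the 15827 genes DESeq2 called 1241 in either direction, against 589 by limma.

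**Figure D2:**
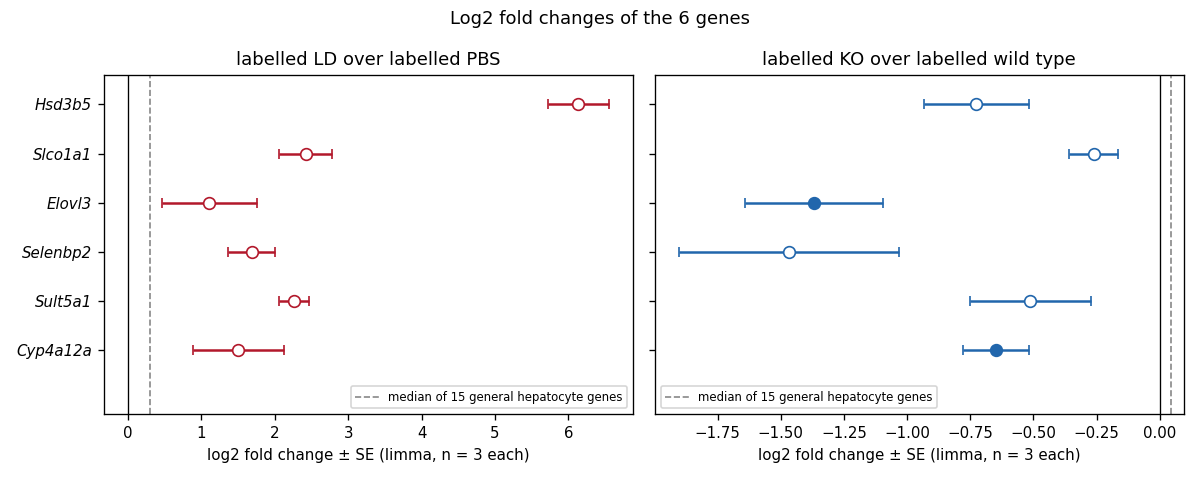
Log2 fold changes ± SE from limma (n = 3 libraries a group) of the 6 genes, labelled LD over labelled PBS at left and labelled KO over labelled wild type at right, on axes of different range; filled circles passed the threshold, open circles at right did not, and no test is given at left. The dashed line is the median of 15 general hepatocyte genes, at 0.30 at left and 0.04 at right; all 6 genes lie above it at left and below it at right.

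General hepatocyte genes, such as Alb, Apoa1 and the fibrinogen genes, show the level of hepatocyte RNA at large. Of 15 tested between labelled KO and labelled wild type libraries, limma called 0 (2 at an unadjusted p under 0.05), edgeR called 1 and DESeq2 called 2, and their median log2 fold change was 0.04. Between labelled LD and labelled PBS libraries only Hpd, an enzyme of tyrosine breakdown, was called, and it rose (log2 fold change 0.67 ± 0.12, adjusted p = 0.020), with a list median of 0.30. That call was lost without labelled LD replicate 1 or 2 or labelled PBS replicate 2 or 3, with adjusted p up to 0.101.

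**Figure D3:**
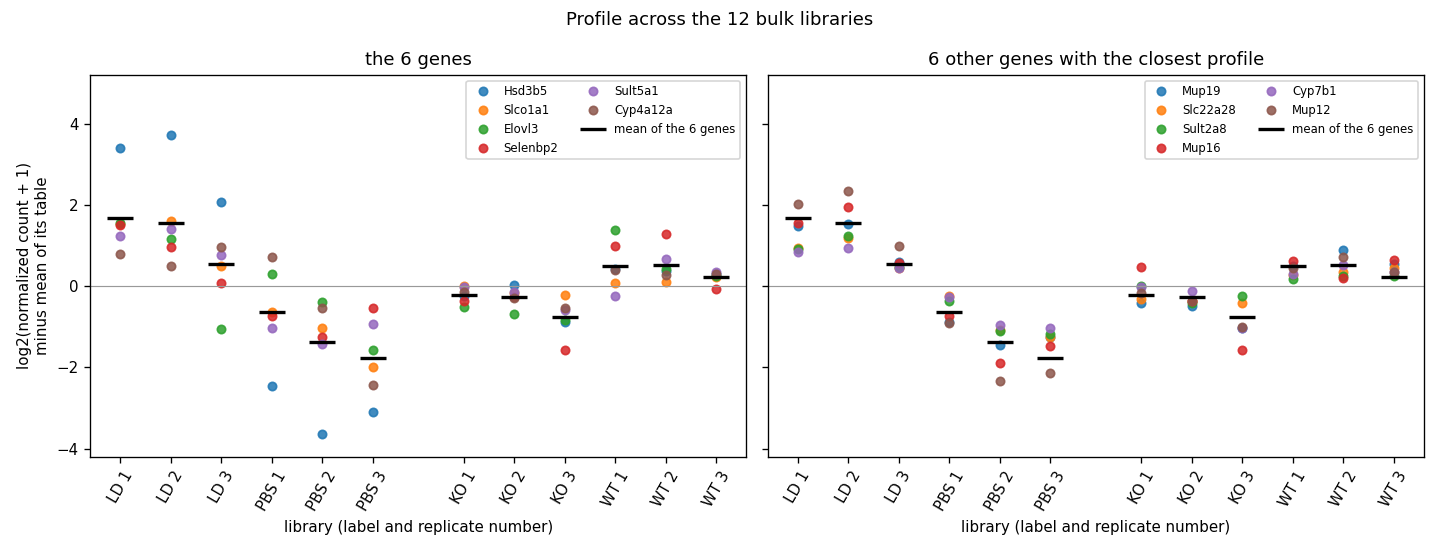
Log2(normalized count + 1) of each gene minus its mean over the 6 libraries of its table, for the 6 genes at left. At right are the 6 other genes with the closest profile, with Gm and Rik gene models left out. Dashes mark the mean of the 6 genes. That mean was 1.67, 1.56 and 0.55 in labelled LD libraries 1, 2 and 3 and -0.64, -1.38 and -1.76 in labelled PBS libraries, and every labelled KO library (-0.22, -0.26 and -0.77) lay below every labelled wild type library (0.50, 0.52 and 0.22).

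The 6 genes did not move by the same amount. Around the mean profile of the 6, the root mean square difference over the 12 libraries was 0.28 log2 units for Slco1a1, the closest, and 1.30 for Hsd3b5, the farthest. Other genes were ranked among the 13188 tested in both tables, leaving out gene models with names of the Gm or Rik form. The 6 with the closest profile were Mup19 (0.25), Slc22a28 (0.35), Sult2a8 (0.38), Mup16 (0.41), Cyp7b1 (0.42) and Mup12 (0.43). The Mup genes encode major urinary proteins, Slc22a28 belongs to the organic anion transporter family, Sult2a8 is a sulfotransferase, and Cyp7b1 hydroxylates oxysterols. Their log2 fold changes in labelled LD over labelled PBS libraries ran from 1.496 for Cyp7b1 to 3.58 for Mup12, and in labelled KO over labelled wild type libraries from -1.29 for Mup19 to -0.45 for Sult2a8. Slc22a28, with 767 ± 23.1 normalized counts in labelled KO and 1274 ± 74.8 in labelled wild type libraries, had a log2 fold change of -0.73 ± 0.09 there. Since these 6 were found by their profile over the same 12 libraries, the 6 fold changes are given here as a description.

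Close relatives of the 6 genes showed whether whole families moved. Selenbp1, whose coding sequence is 98.7% identical to that of Selenbp2, had 9314 ± 872 normalized counts in labelled LD and 7481 ± 677 in labelled PBS libraries, with a log2 fold change of 0.32 ± 0.10 (adjusted p = 0.117). In the other table it had 9269 ± 397 in labelled KO and 11088 ± 1247 in labelled wild type libraries, with a log2 fold change of -0.25 ± 0.11 (adjusted p = 0.268). Selenbp1 thus gave smaller fold changes of the same sign as Selenbp2, and the difference between the copies was not tested.

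Cyp4a12b, whose coding sequence is 98.5% identical to that of Cyp4a12a, fell in labelled KO libraries. It had 4809 ± 580.2 normalized counts in labelled KO and 10907 ± 1886 in labelled wild type libraries, with a log2 fold change of -1.17 ± 0.15 (adjusted p = 0.0122), and it kept its call without any 1 library. Between labelled LD and labelled PBS libraries it had 1166 ± 539 and 629 ± 411 normalized counts, for a log2 fold change of 0.96 ± 0.44 (adjusted p = 0.271). The Cyp4a genes that the fatty acid sensor PPARA induces are given for comparison. Cyp4a14 had 1813 ± 2444 normalized counts in labelled LD and 5037 ± 2353 in labelled PBS libraries (log2 fold change -2.38 ± 0.82, adjusted p = 0.148), and Cyp4a10 had 6066 ± 3526 and 9843 ± 3984 (-0.78 ± 0.38, adjusted p = 0.294). Both passed the threshold only without labelled LD replicate 3. Of the 5 Cyp4a relatives tested, 2 had a log2 fold change above 0 in labelled LD libraries (Cyp4a12b and Cyp4a32, the second at 0.45 ± 0.22, adjusted p = 0.296), and all 5 had one below 0 in labelled KO libraries, where Cyp4a12b was the only call.

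Among 3 relatives of Hsd3b5 tested, Hsd3b2 and Hsd3b3 rose in labelled LD libraries, beside 1.95% of all genes. Hsd3b2 had 1725 ± 335 normalized counts in labelled LD and 923 ± 123 in labelled PBS libraries (log2 fold change 0.89 ± 0.16, adjusted p = 0.0174), and Hsd3b3 had 14457 ± 2601 and 8314 ± 1241 (0.79 ± 0.15, adjusted p = 0.0251). Both lost their call without labelled LD replicate 1 or 2 or labelled PBS replicate 2 or 3, with adjusted p up to 0.108. Hsd3b4, the nearest copy of Hsd3b5 at 95.2% identity, was tested only in the other table, where it had 19.4 ± 4.33 normalized counts in labelled KO and 31.3 ± 9.04 in labelled wild type libraries (log2 fold change -0.64 ± 0.33, adjusted p = 0.352). Of 5 relatives tested there, limma called 0 (2 at an unadjusted p under 0.05), edgeR called 0 and DESeq2 called 1.

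Sult2a8, a sulfotransferase that acts on bile acids, rose in labelled LD libraries with Sult1b1, which sulfates thyroid hormones and phenols, among 7 relatives of Sult5a1 tested. These 2 of 7 stand beside 1.95% of all genes called higher. Sult2a8 had 13489.8 ± 3523 normalized counts in labelled LD and 4046 ± 1353 in labelled PBS libraries (log2 fold change 1.75 ± 0.24, adjusted p = 0.00595) and kept its call without any 1 library. Sult1b1 had 1086 ± 108 and 657 ± 119 normalized counts (0.73 ± 0.14, adjusted p = 0.0229) and lost its call without labelled LD replicate 1 or 2 or labelled PBS replicate 2 or 3. In labelled KO libraries Sult1b1 fell, at 591 ± 79.1 against 884 ± 50.8 in labelled wild type libraries (log2 fold change -0.59 ± 0.12, adjusted p = 0.0396). That call was lost without labelled KO replicate 2 or 3 or any 1 labelled wild type library, with adjusted p up to 0.134.

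Among 5 relatives each of Slco1a1 and Elovl3, 1 each was called between labelled LD and labelled PBS libraries, beside 4.16% of all genes. In labelled LD over labelled PBS libraries Slco2b1, another organic anion transporter, was the only 1 of 5 relatives of Slco1a1 called, with a log2 fold change of 0.33 ± 0.08 (adjusted p = 0.0455), lost under edgeR, TMM and quantile scaling, without a filter, and without any 1 library other than labelled LD replicate 3 (adjusted p up to 0.142). Slco1a4, the neighbour of Slco1a1 on chromosome 6, had a log2 fold change of -0.05 ± 0.15 (adjusted p = 0.885). Of 5 relatives of Elovl3, Elovl7, which elongates long saturated fatty acids, was called and fell, at 21.0 ± 6.93 normalized counts in labelled LD and 99.4 ± 23.7 in labelled PBS libraries (-2.22 ± 0.33, adjusted p = 0.00947), lost without labelled PBS replicate 2 or 3. Between labelled KO and labelled wild type libraries limma called 0 of 5 Slco relatives (2 at an unadjusted p under 0.05) and 0 of 4 Elovl relatives (1 at an unadjusted p under 0.05), edgeR called 0 of each and DESeq2 1 of each.

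**Figure D4:**
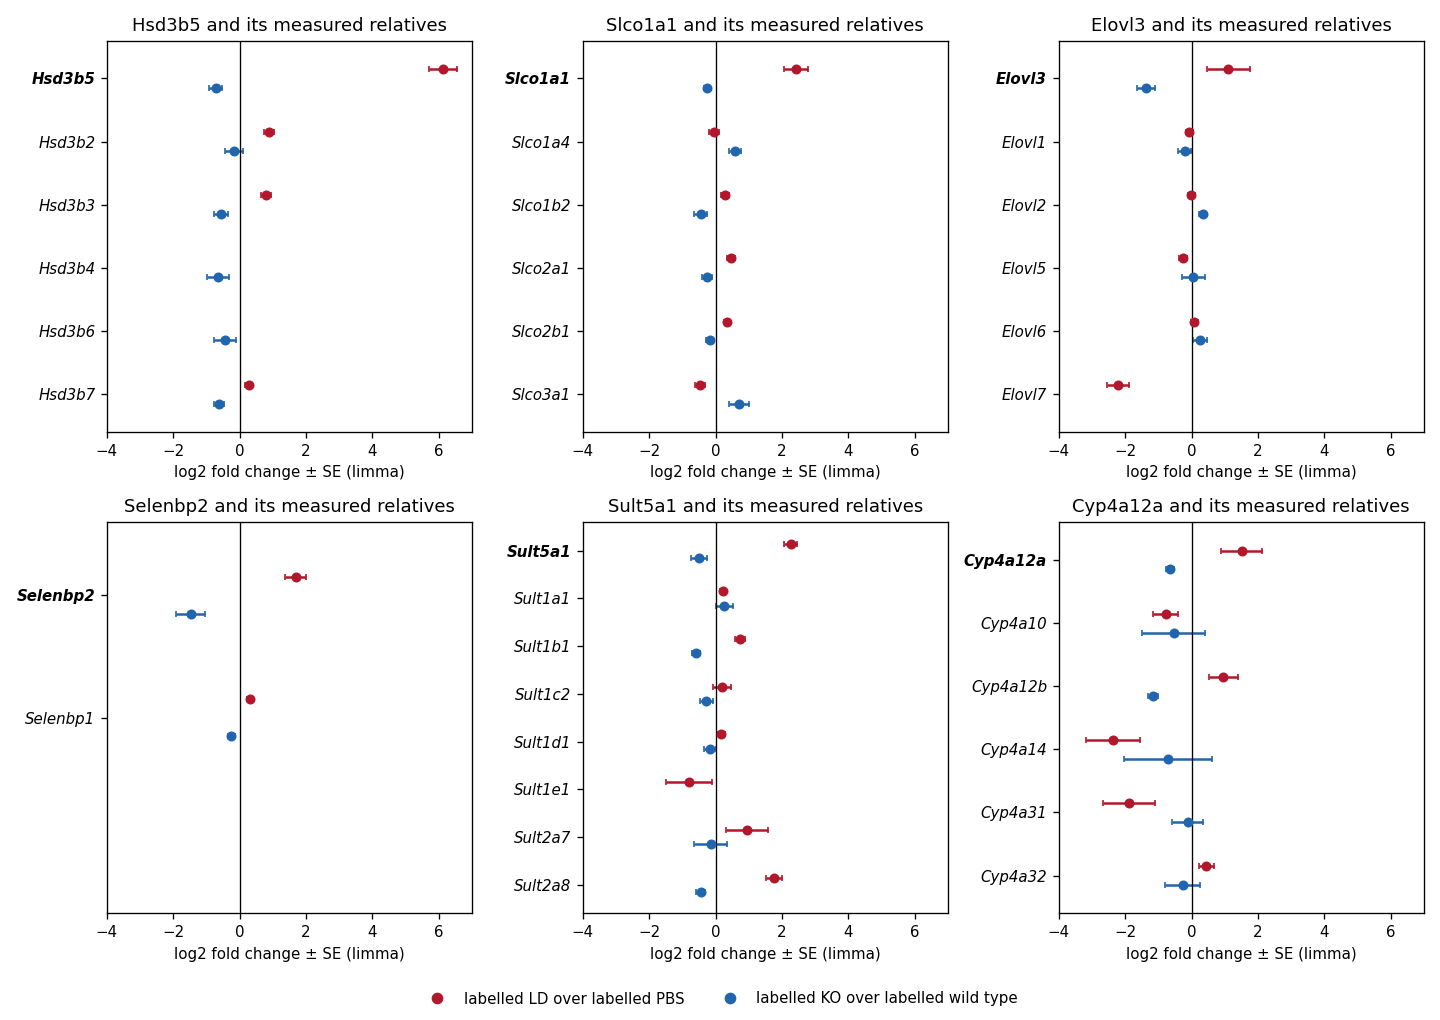
Log2 fold changes ± SE (limma, n = 3 libraries a group) of each of the 6 genes, in bold, and of the relatives that passed the filter on low values, labelled LD over labelled PBS in red and labelled KO over labelled wild type in blue; a missing point was not tested. Hsd3b5 at 6.13 stood well to the right of its relatives, whereas Cyp4a12b (-1.17) lay to the left of Cyp4a12a (-0.65).

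Genes of the growth hormone pathway showed 2 calls out of 14 in labelled LD libraries, both of secreted products, beside 4.16% of all genes. Igfals, the acid-labile subunit that carries IGF1 in blood, had 4054, 4149 and 4122 normalized counts in labelled LD libraries, against 2384, 1840 and 2679 in labelled PBS libraries (log2 fold change 0.85 ± 0.13, adjusted p = 0.00947), and it kept its call without any 1 library. Igf1 had 18413 ± 1035 normalized counts in labelled LD and 14204 ± 892 in labelled PBS libraries (0.37 ± 0.09, adjusted p = 0.0483), a call lost under edgeR, TMM and quantile scaling, without a filter, and without any 1 library other than labelled LD replicate 3 (adjusted p up to 0.181). The receptor Ghr had 20456 ± 2477 and 15035 ± 1573 (0.44 ± 0.12, adjusted p = 0.0722), and the feedback inhibitor Cish 1377 ± 439 and 816 ± 424 (0.83 ± 0.33, adjusted p = 0.204). Ghr and Cish were chosen for naming after their values were seen, as was Bcl6. The median log2 fold change of the 14 genes was 0.34.

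In labelled KO libraries 1 of the same 14 genes was called, beside 3.72% of all genes. Onecut1, a liver transcription factor also known as HNF6, had 86.0, 118 and 344 normalized counts in labelled KO libraries, against 877, 761 and 875 in labelled wild type libraries (log2 fold change -2.45 ± 0.45, adjusted p = 0.0313). It lost its call without labelled KO replicate 1 or 2 or any 1 labelled wild type library, with adjusted p up to 0.107. Cish had 68.8, 74.4 and 485 normalized counts in labelled KO libraries, against 846, 905 and 992 in labelled wild type libraries (-2.74 ± 0.67, adjusted p = 0.0698), and passed without labelled KO replicate 3. Bcl6, a repressor that opposes STAT5, had 1644, 1895 and 269.6 normalized counts in labelled KO libraries, against 396, 385 and 338 in labelled wild type libraries (1.34 ± 0.66, adjusted p = 0.334). For Onecut1, Cish and Bcl6, labelled KO replicate 3 stood apart from the other 2 labelled KO libraries, and it was also the lowest labelled KO library for all 6 output genes. Ghr had 13179 ± 989 and 15558 ± 866 (-0.24 ± 0.10, adjusted p = 0.257), Igf1 had 16813 ± 1592 and 16257 ± 2030 (0.05 ± 0.13, adjusted p = 0.872), and the median of the 14 was -0.01.

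Other male-biased liver genes, outside the Mup family, had 6 of 12 tested genes called higher in labelled LD libraries, beside 1.95% of all genes, and 0 called lower, beside 2.21% (4.16% in either direction). Susd4, a complement regulator, had 997 ± 251 normalized counts in labelled LD and 318 ± 121 in labelled PBS libraries (log2 fold change 1.67 ± 0.26, adjusted p = 0.0116). Cyp7b1 had 4889 ± 845 and 1767 ± 551 (1.496 ± 0.20, adjusted p = 0.00587), Cyp2d9, a steroid hydroxylase, 81459 ± 8710.1 and 31382 ± 6160.3 (1.39 ± 0.15, adjusted p = 0.00296), and Nudt7, a peroxisomal coenzyme A hydrolase, 10636 ± 877 and 5054 ± 717 (1.08 ± 0.11, adjusted p = 0.00293). Cyp7b1, Cyp2d9 and Nudt7 kept their calls without any 1 library, and Susd4 lost its call without labelled LD replicate 1 or labelled PBS replicate 2 or 3. Gstp1 and Cyp2u1 were also called, and the list median was 1.02.

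Between labelled KO and labelled wild type libraries 2 of 14 of these genes were called lower and 1 higher. Among all genes 0.701% were called lower and 3.02% higher. Ugt2b38, a glucuronosyltransferase, had 1066 ± 117 normalized counts in labelled KO and 2297 ± 209 in labelled wild type libraries (log2 fold change -1.11 ± 0.11, adjusted p = 0.00620), and Cyp4a12b is given above. Both kept their call without any 1 library. Ust, a sulfotransferase that acts on sugar chains, rose to 46.7 ± 17.1 normalized counts in labelled KO, against 8.39 ± 5.07 in labelled wild type libraries (2.40 ± 0.48, adjusted p = 0.0395), and lost its call without labelled KO replicate 2 or 3 or labelled wild type replicate 1 or 3. The list median was -0.20, and DESeq2 called 7 of the 14 in either direction.

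Major urinary proteins are carriers of pheromones that male mouse liver secretes in bulk. Of 18 Mup genes tested, 13 rose in labelled LD libraries, beside 1.95% of all genes, with a list median of 2.38. Mup11 had 9491 ± 3845 normalized counts in labelled LD and 496 ± 157 in labelled PBS libraries (log2 fold change 4.22 ± 0.31, adjusted p = 0.000742). Mup15 (3.69 ± 0.43, adjusted p = 0.00377) and Mup12 (3.58 ± 0.41, adjusted p = 0.00371) rose too, and these 3 kept their call without any 1 library. Mup1 rose (3.99 ± 0.67, adjusted p = 0.0147) but lost its call without labelled LD replicate 1 or 2 or labelled PBS replicate 2 or 3, with adjusted p up to 0.0632. Of 22 tested in the other table, 6 fell in labelled KO libraries, beside 0.701% of all genes, with a list median of -0.47. Mup9 had 5994 ± 2397 and 27974 ± 8242 normalized counts in labelled KO and labelled wild type libraries (-2.24 ± 0.31, adjusted p = 0.0147), and its adjusted p was 0.0520 without labelled KO replicate 3. Mup1 had 19160 ± 3789 and 47482 ± 8830 (-1.31 ± 0.19, adjusted p = 0.0160) and Mup8 had 15158 ± 2762 and 38034 ± 7054.6 (-1.33 ± 0.18, adjusted p = 0.0149), and both kept their call without any 1 library. Mup21 had 6932 ± 826 and 18661 ± 5657 (-1.38 ± 0.23, adjusted p = 0.0231) and lost its call without any 1 library other than labelled wild type replicate 1, with adjusted p up to 0.0833. Mup genes are near copies of each other, so reads may be split between them and single Mup values are uncertain.

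Female-biased liver genes were tested as a list of their own. In labelled LD libraries 1 of 16 was called, beside 4.16% of all genes, and Atp6v0d2, a subunit of the proton pump of acidic vesicles, fell to 125 ± 3.75 normalized counts, against 283 ± 35.2 in labelled PBS libraries (log2 fold change -1.16 ± 0.15, adjusted p = 0.00558). The list median was -0.55. In labelled KO libraries 2 of 17 were called, both higher, beside 3.02% of all genes higher; 9 of the 17 had an unadjusted p under 0.05, and the median was -0.19. Cyp17a1, an enzyme of steroid synthesis, had 284 ± 65.3 normalized counts in labelled KO and 30.3 ± 17.2 in labelled wild type libraries (3.32 ± 0.41, adjusted p = 0.0105). Nipal1, a magnesium transporter, had 57.9 ± 9.28 and 7.6 ± 6.94 (3.08 ± 0.56, adjusted p = 0.0310). Cyp17a1 kept its call without any 1 library, and Nipal1 lost it in every such fit other than that without labelled wild type replicate 2, with adjusted p up to 0.109.

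Markers of other cells and of inflammation moved in the same libraries, and their part in the results above was not tested. In labelled KO libraries 10 of 13 myeloid genes tested were higher and 0 lower, with a median log2 fold change of 2.33. Among all genes 3.02% were called higher and 0.701% lower. Marco, a scavenger receptor of macrophages, had 14123 ± 4249.8 normalized counts in labelled KO and 404 ± 143 in labelled wild type libraries (5.15 ± 0.33, adjusted p = 0.00170), and Lyz2, lysozyme, 13385 ± 4091 and 804 ± 172 (4.03 ± 0.25, adjusted p = 0.00170). The chemokine Ccl2 (4.39 ± 0.34, adjusted p = 0.00225) and the integrin Itgam (3.52 ± 0.36, adjusted p = 0.00620) rose as well, and Marco, Lyz2, Ccl2 and Itgam kept their calls without any 1 library. Of 7 macrophage markers 4 were called higher, Timd4, Cd5l, Csf1r and Cd163 (log2 fold changes of 2.47, 2.33, 2.07 and 1.85), as were the neutrophil marker Csf3r (2.44) and the B cell marker Bank1 (1.57). Each of these 6 lost its call without labelled KO replicate 2, with adjusted p up to 0.107 over all 6 libraries left out in turn. The summed level of all 15 myeloid genes ran from 32639 to 57569 normalized counts in labelled KO and from 4652 to 9151 in labelled wild type libraries, and none was at 0 in every library. Of 16 acute-phase genes, which the liver raises in inflammation, 5 were higher and 0 lower, among them the haemoglobin-binding Hp at 193162 ± 17555 against 78461 ± 6278 in labelled wild type libraries (1.30 ± 0.17, adjusted p = 0.0113). Orm3, an orosomucoid, rose by more on the log2 scale (1.504 ± 0.20, adjusted p = 0.0128), and Il1rn (1.27 ± 0.21, adjusted p = 0.0218) and the haem-binding Hpx (1.05 ± 0.19, adjusted p = 0.0315) rose with calls lost in 5 of the 6 fits without 1 library. Their summed level ran from 684671 to 1009493 in labelled KO and from 431776 to 465111 in labelled wild type libraries.

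Between labelled LD and labelled PBS libraries the same lists gave the values that follow. Of 15 myeloid genes 1 was higher and 3 were lower, with a median log2 fold change of -0.25. Among all genes 1.95% were called higher and 2.21% lower. The summed level of the 15 myeloid genes ran from 14382 to 18446 normalized counts in labelled LD and from 17002 to 26971 in labelled PBS libraries. Gpnmb, a lipid-handling macrophage gene, fell to 382 ± 14.5 normalized counts, against 1670 ± 569 in labelled PBS libraries (-2.07 ± 0.20, adjusted p = 0.00277), and Marco rose to 356 ± 161 against 81.2 ± 23.3 (2.03 ± 0.36, adjusted p = 0.0174), a call lost without labelled LD replicate 1 or labelled PBS replicate 1 or 2. Trem2 and Lyz2 were the other genes called lower (-1.15 ± 0.25 and -0.69 ± 0.16), both lost without labelled LD replicate 1 or 2 or labelled PBS replicate 2 or 3, whereas the scavenger receptor Cd163, a macrophage marker, rose (2.76 ± 0.29, adjusted p = 0.00293) and kept its call. Of 16 acute-phase genes 4 were lower and 0 higher, namely Saa2, Orm2, Lcn2 and Steap4 (log2 fold changes of -0.90, -0.77, -0.77 and -0.57, each call lost in 4 of the 6 fits without 1 library), with a median of -0.37 and summed levels of 436593 to 465204 in labelled LD and 478464 to 597258 in labelled PBS libraries. The summed level of the 15 hepatocyte genes, given above for labelled LD and labelled PBS libraries, ran from 3194975 to 3587204 in labelled KO and from 2759637 to 3094638 in labelled wild type libraries.

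Markers of bile duct and stellate cells also moved with the labelled LD group, and their part in the results was not tested. All 6 cholangiocyte markers were lower in labelled LD libraries without overlap, beside 12.8% of all genes tested. Epcam, Spp1 and Krt19 were called lower (log2 fold change -1.76 ± 0.26, -1.26 ± 0.28 and -0.87 ± 0.19, adjusted p = 0.00889, 0.0385 and 0.0413), beside 2.21% of all genes. Spp1 and Krt19 lost their call in 5 of the 6 fits without 1 library. The summed level of the 6 ran from 3845 to 7025 normalized counts in labelled LD and from 9553 to 13316 in labelled PBS libraries. Of 7 stellate markers, the collagens Col1a1 and Col3a1 and the pericyte gene Rgs5 were called lower (-0.92 ± 0.11, -0.91 ± 0.10 and -0.53 ± 0.09, adjusted p = 0.00428, 0.00293 and 0.0147). Rgs5 lost its call without labelled LD replicate 1 or 2 or labelled PBS replicate 2 or 3 (adjusted p up to 0.0799), and the collagens kept theirs. The summed level of the 7 ran from 22043 to 23328 in labelled LD and from 30407 to 35722 in labelled PBS libraries. In the other table the cholangiocyte sum ran from 912 to 1635 in labelled KO and from 458 to 762 in labelled wild type libraries, and the stellate sum from 4376 to 5559 and from 2051 to 5026.

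Markers of the liver zones moved too. The summed level of 8 pericentral hepatocyte markers ran from 441393 to 477935 in labelled LD and from 279443 to 378673 in labelled PBS libraries, and from 232078 to 276499 in labelled KO and from 281455 to 291882 in labelled wild type libraries. In both tables the groups did not overlap in this sum. Between labelled KO and labelled wild type libraries, though, limma called 0 of the 8 (0 at an unadjusted p under 0.05). There 4 log2 fold changes were above 0 and 4 below, with a median of -0.05. Of the 8, Cyp1a2, a drug-metabolizing enzyme, and Slc1a2, a glutamate transporter, were called higher in labelled LD libraries (1.03 ± 0.12 and 0.50 ± 0.10, adjusted p = 0.00371 and 0.0299). Cyp1a2 kept its call without any 1 library. Slc1a2 lost its call under quantile scaling and without labelled LD replicate 1 or 2 or labelled PBS replicate 2 or 3 (adjusted p up to 0.111). The sum of 8 periportal markers ran from 218660 to 235248 in labelled LD and from 174643 to 193538 in labelled PBS libraries, and the ranges overlapped in the other table, at 190777 to 267830 in labelled KO and 210184 to 223377 in labelled wild type libraries. Gls2 was called higher and Aldh1b1 lower in labelled LD libraries (0.48 ± 0.11 and -0.39 ± 0.09), and Pck1 and Hsd17b13 higher in labelled KO libraries (1.20 ± 0.25 and 1.06 ± 0.14). Of these 4 periportal genes only Hsd17b13 kept its call without any 1 library. The part of zone markers in the results was not tested.

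Nuclei give the levels by cell type, as mean UMIs scaled to 10000 per nucleus in 12 numbered groups, with 1 ko and 1 wt library and therefore no test. Each group has 1 value a genotype, and the number of nuclei behind it is not given in the sources used here. Group 0 had the highest level of all 8 pericentral hepatocyte markers and is called pericentral-like, and group 1 had the highest level of 7 of 8 periportal markers and is called periportal-like. The ko values in these groups are among those that picked the 6 genes. All 6 were higher in ko than in wt nuclei of both groups. In labelled KO over labelled wild type bulk libraries all 6 log2 fold changes were below 0, the opposite direction. In labelled LD over labelled PBS libraries, which also picked the genes, all 6 were above 0. Why the ko nuclei and the labelled KO libraries differ in direction was not tested.

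In the pericentral-like group Hsd3b5 had 1.47 in ko and 0.0504 in wt nuclei, Slco1a1 4.48 and 1.63, and Elovl3 0.942 and 0.254. Selenbp2 had 2.95 in ko and 0.264 in wt nuclei, Sult5a1 0.0860 and 0.0161, and Cyp4a12a 2.92 and 1.42. The ko-to-wt fold was thus largest for Hsd3b5 at 29.1 and smallest for Cyp4a12a at 2.06. In the periportal-like group Hsd3b5 had 0.753 in ko and 0.0127 in wt nuclei, Slco1a1 2.50 and 0.373, and Elovl3 0.831 and 0.116. Selenbp2 had 2.43 in ko and 0.399 in wt nuclei, Sult5a1 0.779 and 0.180, and Cyp4a12a 1.48 and 0.747. Again Hsd3b5 had the largest fold, 59.1, and Cyp4a12a the smallest, 1.98. A level at least 2-fold higher in ko nuclei was seen for 3.77% of 10377 genes in the pericentral-like group and 4.05% of 10258 in the periportal-like group, and one at least 2-fold lower for 1.6% and 3.44%, and nothing is read from the count of the 6.

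Within each zone the 6 genes ranked differently. Sult5a1 was highest in the periportal-like group in both genotypes. Hsd3b5, Slco1a1, Elovl3 and Cyp4a12a were highest in the pericentral-like group in both genotypes, and Selenbp2 was so in ko but highest in the periportal-like group in wt nuclei.

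General hepatocyte genes were also higher in ko nuclei. All 15 were higher in ko in both groups, with summed levels of 138.6 in ko and 100.5 in wt in the pericentral-like group and of 275.8 and 158.8 in the periportal-like group. Relative to their median log2 ratio, taken with a small pseudocount (the level below which 5% of nonzero values lie), Hsd3b5 was 4.21 higher in the pericentral-like and 4.89 in the periportal-like group, Slco1a1 0.82 and 1.79, Elovl3 1.24 and 1.89, Selenbp2 2.83 and 1.66, Sult5a1 1.74 and 1.17, and Cyp4a12a 0.40 and 0.04. Cyp4a12a in the periportal-like group thus differed between the genotypes by about as much as the general hepatocyte genes.

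RNA of hepatocytes was also read in groups of other cells. In groups 2 to 11 the summed level of the 15 hepatocyte genes was 30.2 to 162.8 in ko and 13.6 to 86.9 in wt nuclei, a ko-to-wt ratio of 1.76 to 2.41. The highest level of Hsd3b5 in ko nuclei of those groups was 20.9% of that in the pericentral-like group, and it was 19.7% for Slco1a1, 17.9% for Selenbp2 and 6.29% of the periportal-like level for Sult5a1. It was 70.0% for Elovl3 and 77.7% for Cyp4a12a, both in group 5, where all 5 neutrophil markers were highest. In wt nuclei the same share was 38.4% for Hsd3b5, 15.1% for Slco1a1, 76.3% for Elovl3, 57.7% of the periportal-like level for Selenbp2, 16.6% for Sult5a1 and 19.7% for Cyp4a12a. Group 5 also had the highest hepatocyte sum of those groups, 162.8 in ko and 86.9 in wt nuclei. Of 4661 genes in group 5, 20.1% were at least 2-fold higher and 16.8% at least 2-fold lower in ko nuclei. Per 1000 UMIs of the hepatocyte genes, the 6 genes together had 92.7 in ko and 36.1 in wt nuclei of the pericentral-like group and 31.8 and 11.5 in the periportal-like group. How far free hepatocyte RNA sets the levels in the other groups was not tested.

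**Figure D5:**
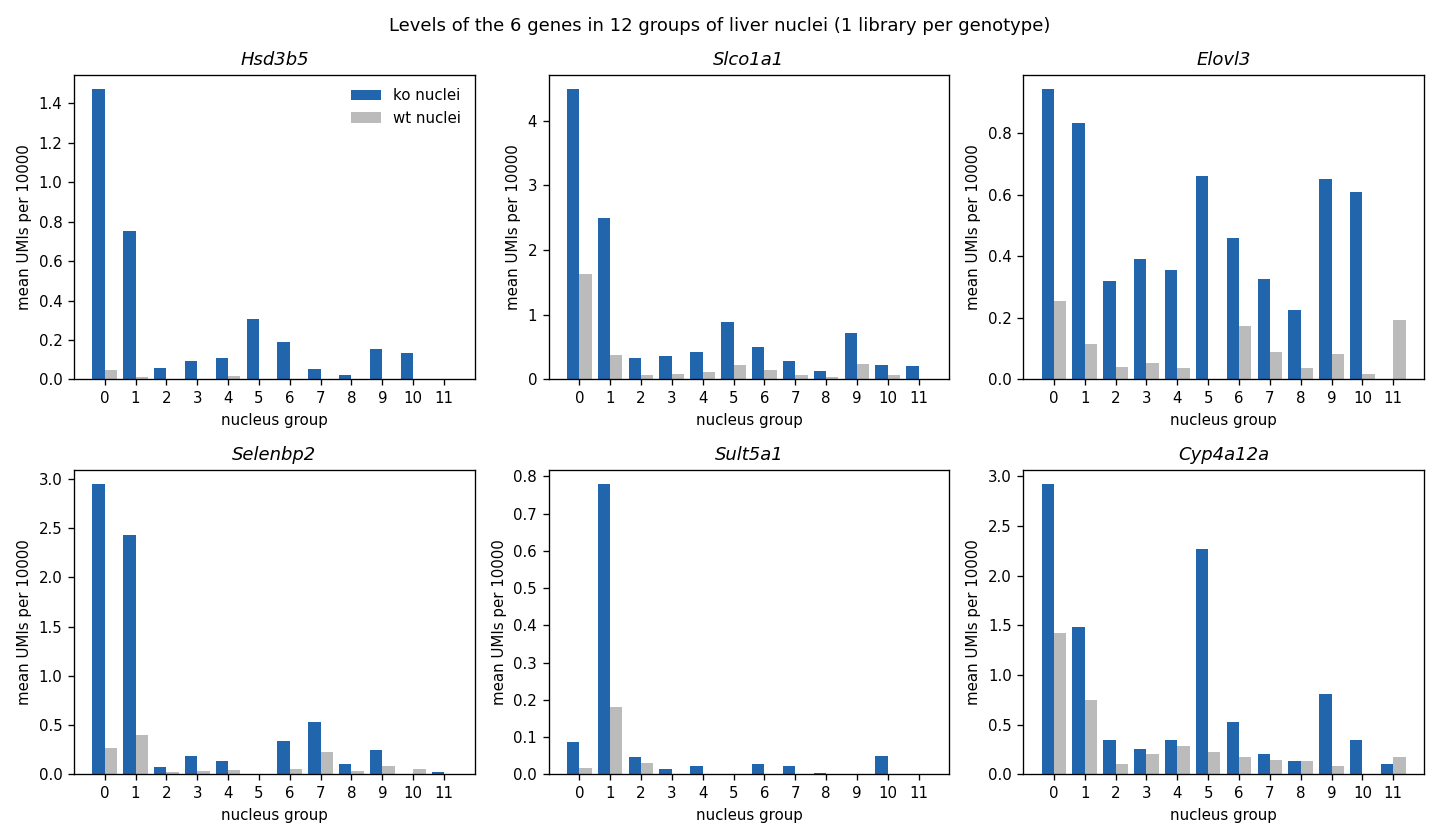
Mean UMIs per 10000 of the 6 genes in the 12 groups of nuclei, ko in blue and wt in grey, with 1 library per genotype and no error bars; the vertical scale differs between genes. Groups 0 and 1, the hepatocyte groups, hold the tallest bars, with Sult5a1 tallest in group 1 and Cyp4a12a at 2.27 in ko nuclei of group 5.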

How the data were processed

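Liver RNA was measured in 12 bulk libraries and 2 pooled libraries of nuclei. The submitters' processing notes name FastQC, STAR, DESeq2, Cell Ranger, Seurat 4.0.1 and the build mm10, without their roles, and the read counter is not given in the sources used here. The bulk values are a signal the authors made by dividing gene reads by a size factor per library. Of these values 100% came out as whole reads within 0.01, and edgeR on those reads called 648 genes between labelled KO and labelled wild type and 603 between labelled LD and labelled PBS libraries. The authors deposited log2 fold changes and p-values of the same 2 comparisons. Nuclei values are a signal the authors averaged per group, with depth and doublet treatment not stated in the sources used here.

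Genes with at least 10 normalized counts in at least 3 of 6 libraries were tested with limma 3.58.1 (trended variance, R 4.3.3) on log2(value + 1), which understates changes of low genes. edgeR 4.0.16 and DESeq2 1.42.0 ran on recovered reads. The fits were checked on simulated data with the same dispersion for every gene and with large changes only. That check does not cover the wider spread of some genes or the smaller changes reported here. In nuclei 4 repeated gene names were left out. The genes, lists and rules were chosen with earlier results of these data known. Named are the 6 genes, Ms4a7, up to 4 called genes per list and direction with the largest fold change, relatives, and the 6 genes with the closest profile; exceptions are marked.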

Additional observations from a re-analysis of the deposited data

How the results depend on the processing

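The 6 genes kept the sign of their fold change between labelled KO and labelled wild type libraries under every alternative run (DESeq2, edgeR, TMM or quantile scaling, pseudocounts of 0.5 and 10, no filter, a mean of at least 50, a replicate block, and without each library). Of the 6, DESeq2 run here called 4, and fits without 1 library called 0 to 1. Hsd3b5, among those 4, did not pass the threshold in the authors' deposited results. Over all genes, 589 were called between labelled KO and labelled wild type libraries by limma and 1241 by DESeq2, and 108 to 479 without 1 library. Between labelled LD and labelled PBS libraries 620 were called by limma and 1222 by DESeq2, and 135 to 1205 without 1 library, the highest without labelled LD replicate 3 and the lowest without labelled PBS replicate 2. The cause of these shifts was not tested, other than that a fit without a library has fewer samples.

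Replicate numbers are shared between groups, but same-numbered libraries did not deviate together, with correlations of 0.12, -0.03 and -0.02 between labelled KO and labelled wild type and of 0.05, -0.04 and 0.13 between labelled LD and labelled PBS libraries, so the numbers are not read as pairs. With the replicate block, 822 genes were called between labelled KO and labelled wild type libraries, against 589 without it. Between labelled LD and labelled PBS libraries 793 were called, against 620. Of the 6 genes, 3 were called with the block (Selenbp2 at adjusted p = 0.00216 in addition). Whether single genes vary with the replicate number was not tested. Of the genes outside the 6 that were called and fall under the naming rule, Ms4a7 included, 13 of 31 between labelled KO and labelled wild type and 18 of 41 between labelled LD and labelled PBS libraries kept their call without any 1 library. The block also ended the calls of Sult1b1 in labelled KO libraries and of Igf1 and Slco2b1 in labelled LD libraries. Nuclei values have no replicate, and their depth is unknown.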
